A study of Mus musculus with 40 samples.

Results

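*Tead4*, *Cdx2*, *Gata3*, *Tfap2c*, *Elf5* and *Hand1* encode transcription factors of the trophectoderm, the outer layer of the blastocyst that goes on to form the placenta. These 6 genes were chosen by name and looked up by symbol among the 56748 genes of a table of read counts, and all 6 were among the 23399 genes that passed the filter on low counts and were tested. *Hand1* passed through its EpiLC libraries alone and *Elf5* through its mES libraries alone, so each had to differ between the stages to be tested at all.

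In the embryo, TEAD4 works with the coactivator YAP in outer cells, where Hippo signalling is low, and switches on *Cdx2* and *Gata3*. CDX2 shuts down the pluripotency factor OCT4, GATA3 and TFAP2C act with it on trophoblast genes, ELF5 keeps trophoblast stem cells going, and HAND1 drives their differentiation into giant cells. Embryonic stem cells derive from the inner cell mass and are held back from this lineage, but several of the genes have other uses, *Tfap2c* and *Tead4* in naive pluripotent cells, *Cdx2* in the posterior embryo, *Hand1* in mesoderm and *Gata3* in surface ectoderm.

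Total RNA was sequenced from 40 cultures of mouse embryonic stem cells (mES cells), kept naive in 2i and LIF, and of epiblast-like cells (EpiLCs), their primed derivatives, collected 48 h after FGF (20 ng/mL) and Activin A (12 ng/mL) were given. At each stage there were 8 wild-type (WT) libraries and 4 libraries each of LBRKO cells (*Lbr* disrupted in WT cells), TKO cells (*Lmna*, *Lmnb1* and *Lmnb2* deleted) and QKO cells (*Lbr* disrupted in TKO cells). QKO was a single clone, several LBRKO clones were made and the labels do not say which of them gave these libraries, and every library was its own culture well, so p-values measure the spread between wells. The WT line was karyotyped as a mixture that held cells with an extra chromosome 6 and 8, and the TKO line as carrying an extra chromosome 8.

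Libraries held 22.6 M to 48.9 M gene counts (M stands for 1000000), with WT replicates 5 to 8 and LBRKO at 39.4 M to 48.9 M and all others at 22.6 M to 33.6 M, a split for which the labels give no batch. *Lmnb1* was at 8.26 to 8.82 CPM (counts per 1000000 of the TMM-scaled library total) in TKO against 481 to 546 CPM in WT mES cells, whereas *Lbr* RNA was still at 145 to 274 CPM in LBRKO mES cells against 347 to 407 CPM in WT. The stages went with their labels, since all 8 genes of a naive pluripotency list fell and all 6 genes of a primed list rose from WT mES cells to WT EpiLCs. A gene is said to rise, fall or change where its Benjamini-Hochberg adjusted p over all 23399 genes was under 0.05 and its fold change over 2 (edgeR quasi-likelihood test). All mutant comparisons with WT share the same WT libraries. Errors for CPM are SD over 8 WT libraries or 4 of a mutant. Errors for log2 fold changes are SE, the size of the change divided by the square root of the F statistic of its test. That test takes its spread from a single fit over all 40 libraries.

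The start regions of *Cdx2*, *Gata3* and *Elf5*, the members found in the set of promoter windows used here, are shown. They are the RefSeq windows (table on GRCm38.p6) of the 250 bases before a start, placed on GRCm39 by an exact match and cut where an annotated exon of the gene begins, at chr5:147244092-147244309 (minus strand) for *Cdx2*, chr2:9883560-9883661 (minus strand) for *Gata3* and chr2:103254163-103254406 (plus strand) for the inner of the 2 *Elf5* windows. Capitals mark matches, on either strand, to a TEAD motif GGAATG, an AP-2 motif GCCNNNGGC, a GATA motif AGATAA, a CDX motif TTTATG, an ETS motif AGGAAG or a POU octamer ATGCAAAT, and no matches overlapped.
Cdx2: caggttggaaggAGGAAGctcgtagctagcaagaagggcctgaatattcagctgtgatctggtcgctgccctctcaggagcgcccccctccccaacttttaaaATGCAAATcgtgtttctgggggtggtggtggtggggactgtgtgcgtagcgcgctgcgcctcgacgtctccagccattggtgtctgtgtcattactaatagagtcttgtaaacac
Gata3: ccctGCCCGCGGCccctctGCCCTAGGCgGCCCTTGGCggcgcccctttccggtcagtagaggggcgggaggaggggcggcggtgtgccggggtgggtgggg
Elf5: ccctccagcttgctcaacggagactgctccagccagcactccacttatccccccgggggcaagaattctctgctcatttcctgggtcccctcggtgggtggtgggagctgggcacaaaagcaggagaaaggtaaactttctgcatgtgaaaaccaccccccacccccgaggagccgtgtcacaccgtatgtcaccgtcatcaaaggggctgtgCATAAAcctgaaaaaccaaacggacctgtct

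The *Cdx2* stretch held a POU octamer 147 bases before the start and an ETS match 238 bases before it, and the *Gata3* stretch held 3 AP-2 matches between 246 and 221 bases before its start. The inner *Elf5* stretch held a single CDX match 37 bases before the start, and the outer *Elf5* window, which lies in an annotated exon and is not printed, held a TEAD match. A further AP-2 match of *Cdx2*, 16 bases before the start, lies in an annotated exon. Of all 32851 RefSeq windows of the same 250 bases, 1.6% held the octamer, 13.7% the AP-2 motif, 12.6% the TEAD motif, 29.5% the ETS motif, 10.8% the CDX motif and 9.99% the GATA motif. The windows held 13 CpG dinucleotides at *Cdx2*, 19 at *Gata3*, and 2 and 8 at the outer and inner *Elf5* starts, against a median of 6 over all windows. *Tead4*, *Tfap2c* and *Hand1* were not among the windows used here.

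From WT mES cells to WT EpiLCs, *Tead4*, *Tfap2c*, *Gata3* and *Cdx2* fell, in a comparison where 31.1% of all genes tested changed, and the levels of *Elf5* and *Hand1* at the 2 stages are given without a test because of how they passed the filter. In mES cells the 6 genes fell into a high and a low set: per kb of exon, *Tfap2c* was at 21.2 ± 2.21 CPM and *Tead4* at 17.8 ± 1.21 CPM, while *Cdx2* was at 0.454 ± 0.506, *Gata3* at 0.130 ± 0.0196, *Elf5* at 0.0405 ± 0.0189 and *Hand1* at 0.0206 ± 0.0171 CPM per kb. In EpiLCs the order was *Tead4* (1.02 ± 0.180 CPM per kb), *Hand1* (0.706 ± 0.168), *Tfap2c* (0.456 ± 0.152), *Cdx2* (0.104 ± 0.0447), *Gata3* (0.0540 ± 0.0209) and *Elf5* (0.0107 ± 0.0110). In bulk RNA, fewer expressing cells and less RNA per cell cannot be told apart.

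**Figure D1:**
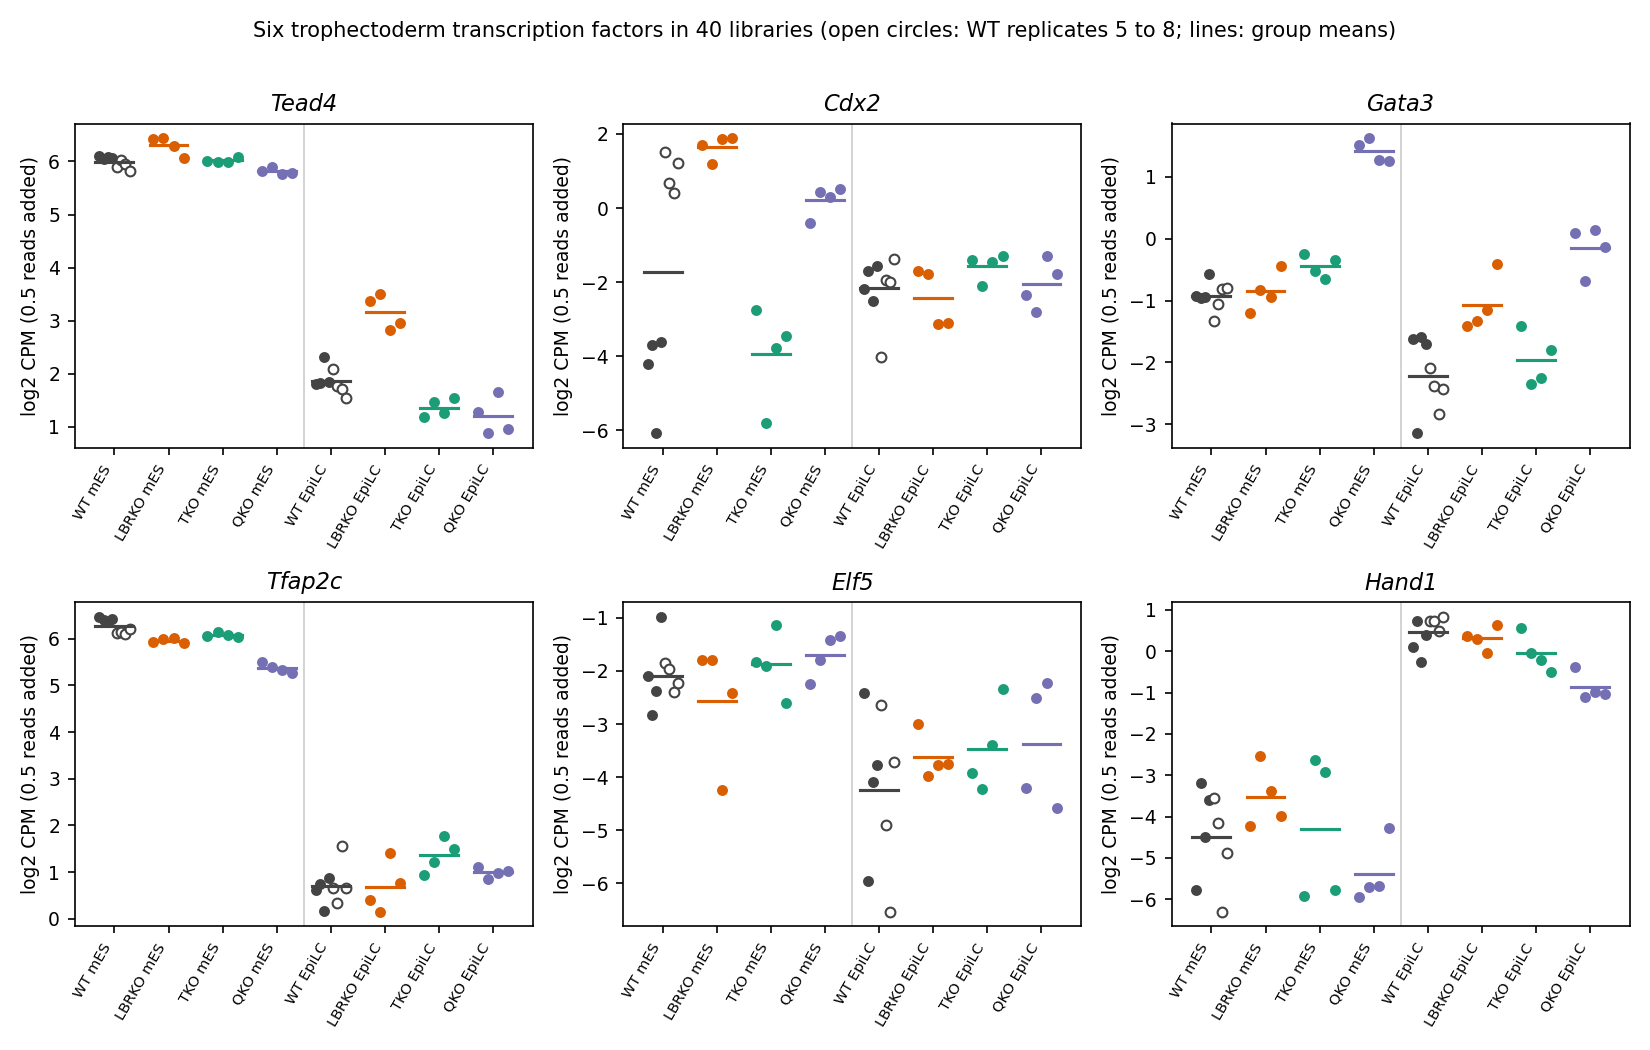
Level of each of the 6 genes in every library, as log2 CPM with 0.5 reads added to the count (vertical axis), by genotype and stage (horizontal axis), with a line at each group mean and open circles for WT replicates 5 to 8. *Tead4* and *Tfap2c* drop from mES cells to EpiLCs in every genotype, *Hand1* goes up, *Gata3* stands highest in QKO at both stages, and the WT mES libraries of *Cdx2* fall into a low and a high set.

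*Tead4* (ENSMUSG00000030353.16, chr6:128201251-128277786, minus strand, GRCm39) ran from 56.1 to 68.3 CPM in WT mES cells, with a median of 65.4, and from 2.89 to 4.96 CPM in WT EpiLCs, with a median of 3.49. The stages were far apart, and the fall was 17.6-fold (log2 fold change -4.13 ± 0.10, adjusted p = 7.38e-33). *Tfap2c* (ENSMUSG00000028640.12, chr2:172391513-172400542, plus strand), the AP-2 family member of trophoblast and germ cells, ran from 68.7 to 88.7 CPM (median 77.8) in WT mES cells and from 1.09 to 2.95 CPM (median 1.57) in WT EpiLCs. It fell 45.6-fold (-5.51 ± 0.13, adjusted p = 1.24e-32), the largest fall of the 4 tested.

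*Gata3* (ENSMUSG00000015619.11, chr2:9861889-9894845, minus strand), a zinc finger factor that can itself induce trophoblast fate, ran from 0.387 to 0.654 CPM (median 0.506) in WT mES cells and from 0.0970 to 0.312 CPM (median 0.201) in WT EpiLCs. Its libraries did not overlap between stages, and it fell (-1.29 ± 0.22, adjusted p = 2.17e-06). The reads behind *Gata3* are few, 151 over the 8 WT mES libraries and 61 over the 8 WT EpiLC libraries. Noncoding genes that overlap it, *Gata3os*, *Gata3un* and *Gm13256*, had means of at most 0.0366 CPM in any group, and the strand setting of the counting is not given in the sources used here.

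*Elf5* (ENSMUSG00000027186.16, chr2:103242033-103281334, plus strand), the ETS factor of trophoblast stem cells, had 4 to 15 reads in each WT mES library and 0 to 6 in each WT EpiLC library, or 0.238 ± 0.111 and 0.0632 ± 0.0645 CPM. The mean was lower in EpiLCs and the ranges overlapped. *Hand1* (ENSMUSG00000037335.14, chr11:57719531-57723644, minus strand), a bHLH factor, had 0 to 3 reads in each WT mES library, 12 in all, and 21 to 81 in each WT EpiLC library, 432 in all. Its level was 0.820 to 1.77 CPM (median 1.51) in WT EpiLCs and 0 to 0.0935 CPM in WT mES cells. These levels carry no test between stages, because *Hand1* passed the filter through its EpiLC libraries alone.

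*Cdx2* (ENSMUSG00000029646.4, chr5:147237615-147244080, minus strand), the caudal-type homeobox factor that sets trophectoderm apart from the inner cell mass, did not have a single WT mES level. WT mES replicates 1 to 4 had 1, 2, 0 and 2 reads (0.0362, 0.0623, 0 and 0.0654 CPM), and replicates 5 to 8 had 117, 71, 52 and 102 reads (2.83, 1.59, 1.32 and 2.30 CPM). The WT EpiLC libraries showed no such split, with 0.244 ± 0.0768 CPM in replicates 1 to 4 and 0.227 ± 0.133 CPM in replicates 5 to 8. With all WT libraries *Cdx2* fell from mES cells to EpiLCs (-2.14 ± 0.55, adjusted p = 0.000715). With replicates 5 to 8 alone the fall was -3.11 (adjusted p = 2.45e-08), and with replicates 1 to 4 alone *Cdx2* rose instead (2.51, adjusted p = 0.000601).

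The same WT libraries parted for the paralog *Cdx1*, at 12.5 ± 2.51 CPM in mES replicates 1 to 4 and 44.4 ± 2.03 CPM in replicates 5 to 8, and for *T*, the T-box gene of early mesoderm, at 0.250 ± 0.0522 and 3.91 ± 0.463 CPM (n = 4 each). WT replicates 5 to 8 were also the more deeply counted ones, at 39.4 M to 48.9 M against 25.4 M to 33.5 M counts, and what sets them apart was not tested. *Tfap2c* differed between the same sets without parting so far, at 85.3 ± 2.86 CPM in mES replicates 1 to 4 and 70.7 ± 2.18 CPM in replicates 5 to 8. *Gata3* was at 0.541 ± 0.0754 and 0.495 ± 0.0840 CPM and *Tead4* at 67.2 ± 1.07 and 60.6 ± 3.71 CPM in the same libraries. Each *Cdx2* result against WT mES cells is therefore given with either set.

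**Figure D2:**
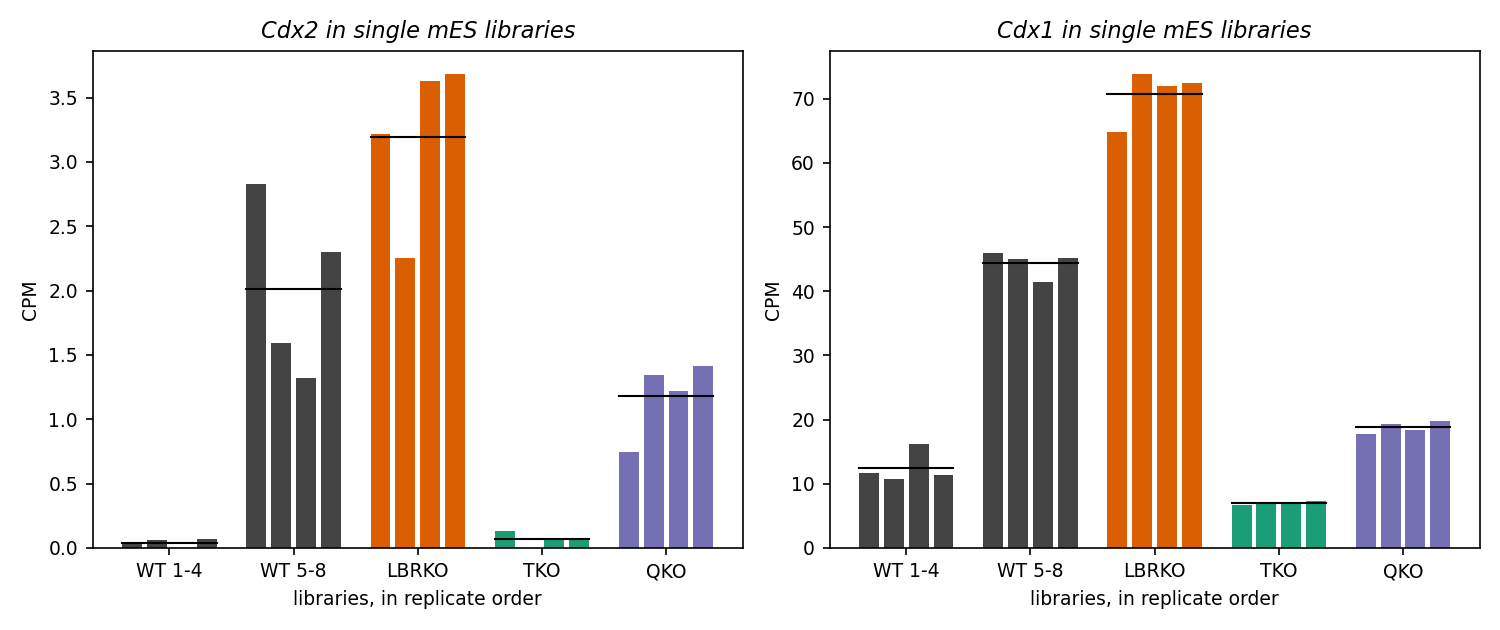
CPM (vertical axis, from 0) of *Cdx2* and its paralog *Cdx1* in single mES libraries, as bars in replicate order, with a line at the mean of each set of 4. WT replicates 1 to 4 have at most 0.0654 CPM of *Cdx2* and WT replicates 5 to 8 at least 1.32 CPM, with TKO at the level of the first. By mean *Cdx2*, LBRKO lies above both WT sets and QKO between them, but LBRKO and QKO libraries each overlap WT replicates 5 to 8.

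In LBRKO mES cells 1 of the 6 members changed, against 6.31% of all genes tested. *Cdx2* had 3.22, 2.25, 3.63 and 3.68 CPM in the 4 LBRKO libraries, a range that overlaps only the highest WT libraries. Its rise with all WT libraries (1.59 ± 0.54, adjusted p = 0.0257) was 6.18 against WT replicates 1 to 4 (adjusted p = 3.20e-12) and 0.67 against WT replicates 5 to 8 (adjusted p = 0.177), the set of like depth. The call was lost when LBRKO replicate 1, 3 or 4 was left out (adjusted p of 0.0553, 0.0696 and 0.0715).

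*Tead4* had 86.1, 86.7, 77.9 and 66.9 CPM in LBRKO mES cells, 3 of them above every WT library, with a difference of 0.31 ± 0.10 that was not 2-fold (adjusted p = 0.0147). *Tead4* lies on chromosome 6, whose 1167 tested genes had a median log2 fold change of 0.38 in LBRKO mES cells, against 0.02 over all genes tested, so the *Tead4* difference was no larger than that of its chromosome. *Tfap2c*, at 61.3, 63.3, 64.9 and 59.8 CPM, lay below every WT library but did not pass (-0.32 ± 0.12, adjusted p = 0.0513). *Gata3* (0.09 ± 0.24), *Elf5* (-0.30 ± 0.50) and *Hand1* (0.99 ± 0.57) did not pass either.

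In TKO mES cells 1 of the 6 members changed, against 6.45% of all genes tested, and it was *Cdx2* again. The TKO libraries had 4, 0, 2 and 2 *Cdx2* reads (0.132, 0, 0.0589 and 0.0731 CPM), which put them with WT replicates 1 to 4 and far from replicates 5 to 8. The fall against all WT libraries was -3.92 ± 0.91 (adjusted p = 0.00119), but it was 0.67 in the other direction against WT replicates 1 to 4 (adjusted p = 0.62) and -4.84 against replicates 5 to 8 (adjusted p = 2.55e-09). By reads alone, TKO stood at 1.66 times the level of WT replicates 1 to 4, with an exact 95% interval of 0.478 to 6.44 that covers counting error only. *Gata3* was at 0.826, 0.678, 0.619 and 0.767 CPM, all but replicate 3 above the highest WT library, and did not pass (0.48 ± 0.24, adjusted p = 0.164). *Tead4* (0.02 ± 0.10), *Tfap2c* (-0.21 ± 0.12), *Elf5* (0.23 ± 0.50) and *Hand1* (0.66 ± 0.66) were close to WT within these errors.

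In QKO mES cells 1 of the 6 members changed, where 17.2% of all genes tested did. *Gata3* had 2.83, 3.06, 2.40 and 2.37 CPM, so that the lowest QKO library stood above the highest library of every other group. It rose 5.13-fold over WT (2.36 ± 0.22, adjusted p = 4.72e-12) and 3.68-fold over TKO (1.88 ± 0.26, adjusted p = 6.96e-07), and the QKO level of 2.66 ± 0.340 CPM rests on 297 reads. It was a rise from a low level, to 0.670 ± 0.0855 CPM per kb where *Tfap2c* was at 11.2 ± 0.789 CPM per kb in the same cells. The rise was larger than the LBRKO and TKO differences added on the log2 scale, by 1.79 ± 0.36 (adjusted p = 0.000208). Beside this synergy term of *Gata3*, that of *Hand1* also passed among the 6 members, where 7.50% of all genes did. The synergy term of *Cdx2* turned on the WT set, at 2.48 ± 1.17 with all WT libraries (adjusted p = 0.156), -2.11 with replicates 1 to 4 (adjusted p = 0.0742) and 3.4 with replicates 5 to 8, where it passed (adjusted p = 0.000109).

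*Tfap2c* moved the other way in QKO mES cells, to 45.1, 41.9, 40.3 and 38.2 CPM, below every library of the other mES groups. Its difference from WT was just short of 2-fold (-0.91 ± 0.13, adjusted p = 1.36e-07) and passed both thresholds against WT replicates 1 to 4 alone (-1.04, adjusted p = 1.18e-09). Against TKO it was -0.71 ± 0.14 (adjusted p = 0.000257). *Tfap2a*, a paralog, went up in the same cells, from 17.8 ± 1.35 CPM in WT to 55.0 ± 0.728 CPM (1.63 ± 0.08, adjusted p = 1.00e-19), and *Gata2*, the paralog of *Gata3* in trophoblast, from 0.931 ± 0.263 to 2.15 ± 0.161 CPM (1.2 ± 0.23, adjusted p = 4.71e-05).

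*Cdx2* stood at 0.747, 1.34, 1.22 and 1.41 CPM in QKO mES cells, all above WT replicates 1 to 4. QKO replicates 2 and 4 lay above WT replicate 7 at 1.32 CPM, so the QKO libraries overlapped WT replicates 5 to 8 at their low end. *Cdx2* did not differ past the thresholds from all WT libraries together (0.15 ± 0.59, adjusted p = 0.865), was higher than in WT replicates 1 to 4 (4.74, adjusted p = 1.99e-09) and was -0.78 against replicates 5 to 8 (adjusted p = 0.0714). Against TKO, its parent line, *Cdx2* rose with no overlap between libraries (4.07 ± 0.98, adjusted p = 0.0019), a comparison that does not use WT. That made 2 of 6 members changed between QKO and TKO mES cells, *Cdx2* and *Gata3*, against 6.21% of all genes tested. *Cdx1* rose in the same comparison, from 6.95 ± 0.293 to 18.8 ± 0.971 CPM (1.43 ± 0.33, adjusted p = 0.00105).

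*Hand1* had no read in 3 QKO mES libraries and 1 read in the other, against 12 over WT, 15 over LBRKO and 8 over TKO. By reads, QKO stood at 0.220 times WT (exact 95% interval 0.00513 to 1.48) and at 0.134 times TKO (0.00302 to 1.00), for counting error only. The fitted synergy term of *Hand1* in mES cells (-3.47 ± 1.20, adjusted p = 0.0372) rests on these reads, and its adjusted p was 0.0512 to 0.149 in 9 of the alternative fits. *Tead4* (-0.18 ± 0.10) and *Elf5* (0.33 ± 0.50) did not pass in QKO mES cells.

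**Figure D3:**
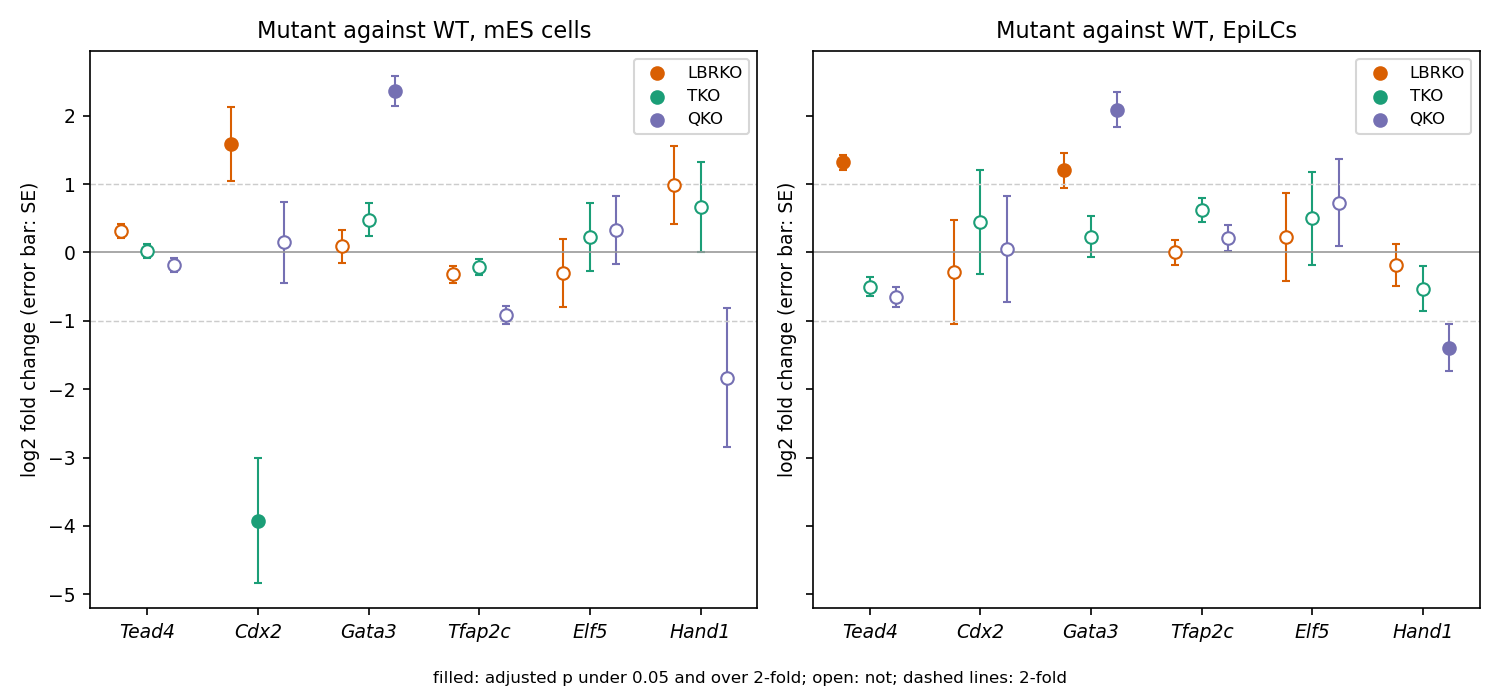
Log2 fold change of the 6 genes in LBRKO, TKO and QKO against WT in mES cells (left) and EpiLCs (right), with SE as bars, filled where adjusted p was under 0.05 and the fold over 2, and dashed lines at 2-fold. *Gata3* is up in QKO at both stages, by 2.36 and 2.09, and the *Cdx2* points in mES cells carry the widest errors among those filled.

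In LBRKO EpiLCs 2 of the 6 members rose, *Tead4* and *Gata3*, against 5.67% of all genes tested. *Tead4* had 10.3, 11.2, 7.11 and 7.71 CPM, all above the highest WT library of 4.96 CPM, a 2.49-fold rise (1.32 ± 0.11, adjusted p = 1.71e-12). The median log2 fold change of chromosome 6 was 0.37, against 0 over all genes, and with libraries scaled to the genes of that chromosome *Tead4* was 0.96 higher (adjusted p = 5.72e-09), just under 2-fold. The *Tead4* difference in EpiLCs thus exceeded that of its chromosome, which it did not in mES cells. *Tead4* fell less on the passage to EpiLCs in LBRKO than in WT, by 1.00 ± 0.15 on the log2 scale (adjusted p = 2.57e-06), a ratio of 2.01 that sits at the threshold.

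The LBRKO EpiLC libraries were not alike. Replicates 1 and 2 had the higher *Tead4* (10.3 and 11.2 CPM) and the higher *Lbr* RNA (403 and 392 CPM), and replicates 3 and 4 the lower *Tead4* (7.11 and 7.71 CPM) and *Lbr* (196 and 233 CPM). Their chromosome 6 medians were in the opposite order, 0.32 and 0.33 against 0.39 and 0.40. *Cdx2* had 13 and 11 reads in replicates 1 and 2 and 5 and 5 in replicates 3 and 4. Which clone each library came from is not in the labels, and its part in these values was not tested.

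**Figure D4:**
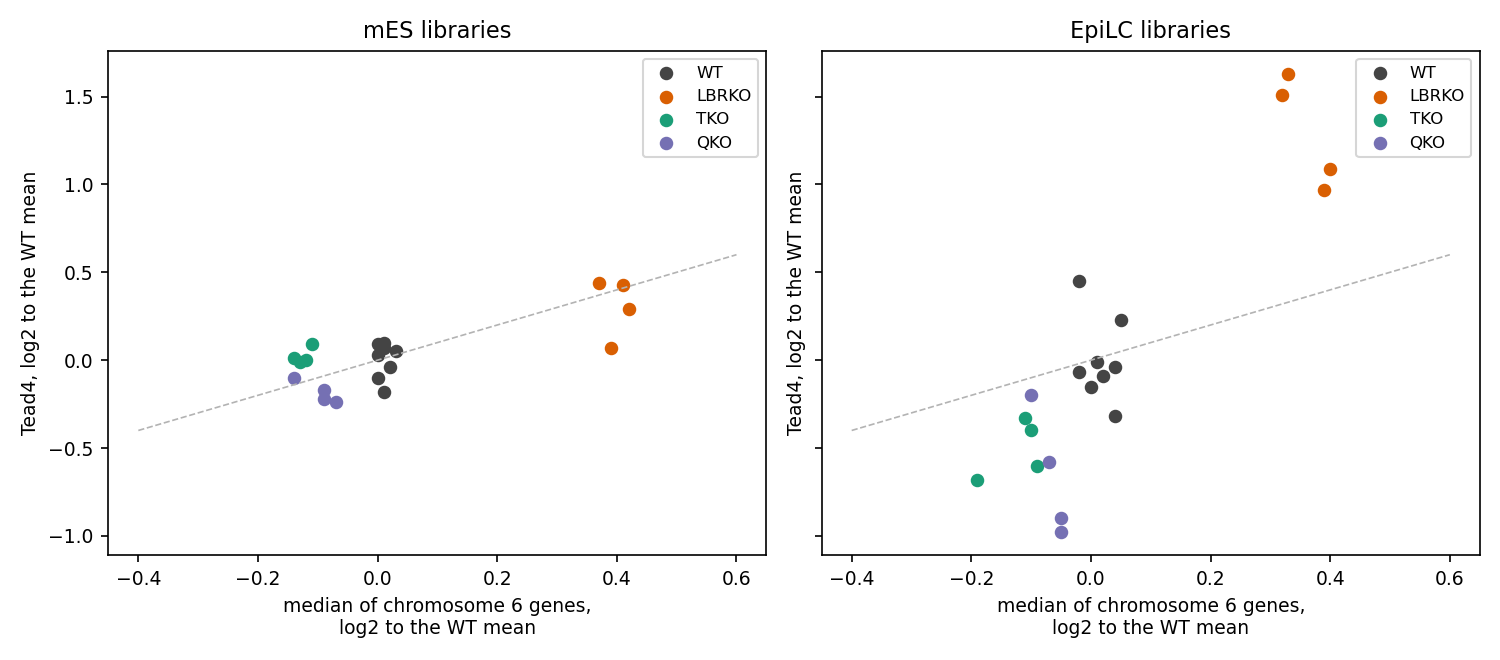
*Tead4* in each library (vertical axis) against the median of the 1167 tested genes of chromosome 6 (horizontal axis), both as log2 to the WT mean of the same stage, with a dashed line of equality. In mES cells LBRKO replicates 1 and 2 lie close to the line and 3 and 4 under it, in EpiLCs all 4 lie well above it, at 0.97 to 1.63 for *Tead4* against 0.32 to 0.40 for the chromosome, and the TKO and QKO EpiLC libraries lie under it.

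*Gata3* had 0.363, 0.383, 0.439 and 0.745 CPM in LBRKO EpiLCs, all above the highest WT library of 0.312 CPM, and rose 1.2 ± 0.25 (adjusted p = 0.00035). The rise was 0.91 without LBRKO replicate 4 (adjusted p = 0.0129) and 0.94 with WT replicates 1 to 4 alone (adjusted p = 0.0245), both short of 2-fold. Its fall on the passage was smaller in LBRKO than in WT (1.10 ± 0.35, adjusted p = 0.025), which with *Tead4* made 2 of 6 members whose passage differed, against 6.0% of all genes. The *Gata3* term did not pass with WT replicates 1 to 4 alone (0.91, adjusted p = 0.141), without LBRKO EpiLC replicate 4 (0.84, adjusted p = 0.124), without LBRKO mES replicate 1 (1.01, adjusted p = 0.0639), without the filter on low counts (adjusted p = 0.0916) or with only the groups compared in the fit (adjusted p = 0.0652). *Cdx2* (-0.29 ± 0.76), *Tfap2c* (0.00 ± 0.18), *Elf5* (0.23 ± 0.64) and *Hand1* (-0.18 ± 0.31) did not differ past the thresholds from WT EpiLCs. *Cdx4*, a paralog of *Cdx2* in the posterior embryo, rose there from 0.327 to 1.73 CPM (2.41 ± 0.32, adjusted p = 1.06e-07). The passage of *Cdx2* in LBRKO mES cells, from 3.19 ± 0.661 to 0.197 ± 0.106 CPM, did not differ past the thresholds from that of all WT libraries (-1.88 ± 0.94, adjusted p = 0.191) or of WT replicates 5 to 8 (-0.91, adjusted p = 0.351), the set of like depth, but did from that of WT replicates 1 to 4 (-6.53, adjusted p = 5.70e-09).

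In TKO EpiLCs none of the 6 members changed by edgeR, and none did by DESeq2, where 2.91% of all genes tested changed by edgeR. *Tfap2c* and *Tead4* had an adjusted p under 0.05. The share of all genes at that threshold alone was not counted. These genes therefore have no background to be read against. *Tfap2c* was at 1.90, 2.31, 3.4 and 2.82 CPM, overlapping WT (0.62 ± 0.18, adjusted p = 0.0141). *Tead4* was at 2.25, 2.73, 2.37 and 2.88 CPM, just below the lowest WT library of 2.89 CPM (-0.50 ± 0.14, adjusted p = 0.0102). Neither reached 2-fold. The other members differed by 0.45 ± 0.76 (*Cdx2*), 0.23 ± 0.30 (*Gata3*), 0.50 ± 0.68 (*Elf5*) and -0.53 ± 0.33 (*Hand1*). Of the passage terms, 1 of 6 passed in TKO, against 3.03% of all genes, and it was *Cdx2* (4.37 ± 1.22, adjusted p = 0.016), whose level went from 0.0660 ± 0.0542 CPM in TKO mES cells to 0.326 ± 0.0783 CPM in TKO EpiLCs. With WT replicates 1 to 4 alone, whose *Cdx2* also went up, that term was -0.28 (adjusted p = 0.909), and with replicates 5 to 8 it was 5.34 (adjusted p = 1.07e-06).

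In QKO EpiLCs 2 of the 6 members changed, *Gata3* upward and *Hand1* downward, against 21.2% of all genes tested. *Gata3* had 1.04, 0.608, 1.08 and 0.897 CPM, with no overlap with any other EpiLC group's range except the highest LBRKO library, and rose over WT (2.09 ± 0.25, adjusted p = 1.99e-09) and over TKO (1.86 ± 0.31, adjusted p = 4.16e-06). The latter was the single change among the 6 between QKO and TKO EpiLCs, against 15.3% of all genes. The QKO level fell from mES cells to EpiLCs by an amount that did not differ from that of WT (-0.27 ± 0.36, adjusted p = 0.647), so *Gata3* was raised at both stages.

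*Hand1* had 0.756, 0.448, 0.491 and 0.476 CPM in QKO EpiLCs, all below the lowest WT library of 0.820 CPM, a 2.62-fold fall (-1.39 ± 0.35, adjusted p = 0.000779). TKO EpiLCs lay between, with 1.46, 0.959, 0.841 and 0.697 CPM, and did not pass (-0.53 ± 0.33, adjusted p = 0.304), nor did QKO against TKO (-0.86 ± 0.39, adjusted p = 0.0774). LBRKO EpiLCs were at 1.27, 1.23, 0.961 and 1.53 CPM, inside the WT range. *Tead4*, at 2.41, 1.82, 3.14 and 1.93 CPM in QKO, was lower than WT without reaching 2-fold (-0.65 ± 0.14, adjusted p = 0.000107). With *Tead4* raised in LBRKO and not in QKO, its EpiLC level in QKO was lower than the LBRKO and TKO differences added would give, by 1.47 ± 0.20 on the log2 scale (adjusted p = 3.32e-07), the single term of this kind among the 6, against 8.05% of all genes. Chromosome 6 as a whole had a median of -0.35 in the same term.

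*Tfap2c* fell less on the passage in QKO than in WT (1.12 ± 0.22, adjusted p = 0.00011), 1 of 6 members against 12.6% of all genes, from a lower start of 41.4 ± 2.90 CPM to 1.97 ± 0.139 CPM. With WT replicates 5 to 8 alone the term was 0.87 (adjusted p = 0.0073). The passage term of *Cdx2* in QKO was -0.10 ± 0.99 with all WT libraries (adjusted p = 0.965), -4.75 with replicates 1 to 4 (adjusted p = 2.24e-06) and 0.88 with replicates 5 to 8 (adjusted p = 0.3). *Elf5* did not differ from WT past the thresholds in any mutant at either stage, with differences from -0.30 ± 0.50 to 0.73 ± 0.64, and its group means ran from 0.0632 CPM in WT EpiLCs to 0.299 CPM in QKO mES cells. At 0 to 15 reads per library, a 2-fold difference of *Elf5* lay within about 2 SE and was not detectable at this depth.

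Ordered by mean level over the 8 groups, *Gata3* ran from QKO mES cells (2.66 CPM) through QKO EpiLCs (0.907) and TKO mES cells (0.722) to WT EpiLCs (0.215), and only QKO mES cells and LBRKO EpiLCs (0.483) stood clear of the next group down. *Tfap2c* was ordered WT, TKO, LBRKO and QKO among mES cells (78.0, 67.6, 62.3 and 41.4 CPM), where WT and TKO libraries overlapped and the later neighbours did not. For *Tead4* the 4 mES groups (79.4 CPM in LBRKO, 64.9 in TKO, 63.9 in WT, 56.3 in QKO) overlapped from each to the next, and among EpiLCs LBRKO (9.09) and WT (3.67) stood clear of the next group while TKO (2.56) and QKO (2.33) overlapped. *Hand1* went down from WT (1.41 CPM) through LBRKO (1.25) and TKO (0.988) to QKO (0.543) EpiLCs with overlap at each step. *Cdx2* stood clear of the next group down only in LBRKO mES cells, at 3.19 CPM above QKO at 1.18. The LBRKO libraries still overlapped those of WT mES cells, which came after QKO in this order.

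The paralogs of *Tead4* encode factors that bind the same sites and take the same coactivators. Per kb of exon, WT mES cells had *Tead2* at 46.9, *Tead4* at 17.8, *Tead1* at 15.6 and *Tead3* at 1.26 CPM, and WT EpiLCs had them at 68.7, 1.02, 4.83 and 3.20 CPM, so *Tead4* went to the lowest level of the family. *Tead1* fell with it (212 ± 31.9 to 65.6 ± 14.8 CPM, -1.70 ± 0.12, adjusted p = 1.14e-16) and *Tead3* rose (1.34 ± 0.10, adjusted p = 4.31e-16). In QKO EpiLCs *Tead2* fell to 154 ± 4.08 CPM from 329 ± 20.9 CPM in WT (-1.09 ± 0.06, adjusted p = 1.17e-18) while *Tead1* was at 128 ± 6.42 CPM, just short of a 2-fold rise (0.97 ± 0.14). *Yap1*, the coactivator, was at 198 ± 8.42 CPM in WT mES cells and did not change past the thresholds in any mutant.

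**Figure D5:**
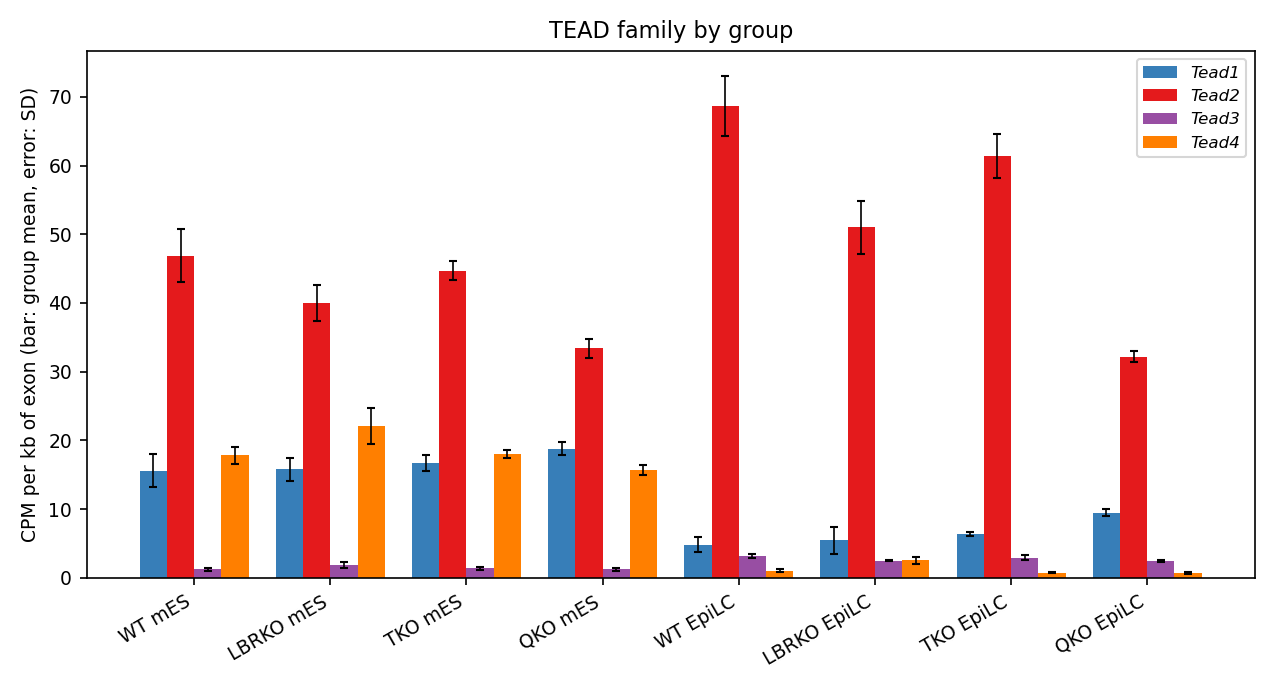
Mean level of the 4 TEAD genes in CPM per kb of exon (vertical axis, from 0) in each of the 8 groups (horizontal axis), with SD as error bars. *Tead2* is the highest in every group, *Tead4* drops in all EpiLC groups, and LBRKO EpiLCs keep the most of it at 2.53 CPM per kb.

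Of a list of 17 Hippo pathway genes, *Tead1*, *Tead2* and *Tead3* among them, 3 rose and 2 fell on the WT passage, or 29.4% against 31.1% of all genes tested. In LBRKO and in QKO mES cells 1 rose and 1 fell, or 11.8% against 6.31% and 17.2% of all genes, and in TKO mES cells 1 fell, or 5.88% against 6.45%. The gene that fell in all 3 mutants was *Amot*, an angiomotin that anchors YAP at junctions, from 3.94 CPM in WT mES cells to 0.597 in LBRKO, 0.954 in TKO and 0.330 in QKO. *Lats2*, a kinase that restrains YAP, rose from 1.31 to 3.29 CPM in LBRKO (1.32 ± 0.23, adjusted p = 2.84e-05) and to 5.02 CPM in QKO (1.92 ± 0.23, adjusted p = 5.61e-09). In EpiLCs *Amot* fell in LBRKO and QKO from 26.4 CPM to 5.25 and 9.03 CPM, and *Tead2* fell beside it in QKO. The median over the list lay between -0.15 and -0.01 in the 6 comparisons of a mutant with WT, against -0.04 to 0.02 over all genes tested.

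Of 15 further regulators of trophoblast stem cells, 3 rose and 5 fell on the WT passage, or 53.3% against 31.1% of all genes tested. In mES cells 3 rose and 3 fell in LBRKO (40% against 6.31%), 4 fell in TKO (26.7% against 6.45%), and 2 rose and 5 fell in QKO (46.7% against 17.2%). *Fgfr2*, the receptor for the FGF that trophoblast stem cells need, fell in all 3 mutants, from 8.87 CPM in WT mES cells to 1.62 in LBRKO, 1.84 in TKO and 0.450 in QKO. *Eomes*, the T-box partner of CDX2, turned with the stage in QKO, at 2.45 ± 0.323 CPM in QKO against 6.70 ± 0.431 in WT mES cells (-1.45 ± 0.11, adjusted p = 4.48e-14) and at 21.4 ± 0.973 against 7.93 ± 1.00 CPM in EpiLCs (1.43 ± 0.09, adjusted p = 1.22e-16). In EpiLCs 3 of the 15 rose in LBRKO (20.0% against 5.67% of all genes), and 3 rose and 2 fell in QKO (33.3% against 21.2%).

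Of 16 genes of differentiated trophoblast, 9 were tested, and *Prl3d1*, *Prl3b1*, *Prl2c2*, *Tpbpa* and *Ctsq*, which mark giant cells and spongiotrophoblast, had no read in any group. Of those tested, 6 rose on the WT passage (66.7% against 31.1% of all genes tested) and 4 fell in TKO mES cells (44.4% against 6.45%). In QKO mES cells 1 rose and 4 fell (55.6% against 17.2%). Among them was *Rhox6*, from 1.63 CPM in WT to 0.259 in TKO and 0.306 in QKO. In LBRKO mES cells 2 rose and 1 fell (33.3% against 6.31%), with *Rhox6* at 4.84 CPM and *Peg10*, an imprinted placental gene, at 276 against 93.1 CPM in WT. These are means, and the summed level of the list varied widely between libraries, from 166 to 423 CPM in LBRKO and from 61.1 to 145 CPM in WT mES cells. Among 16 genes of trophectoderm epithelium, 15 tested, 1 rose and 7 fell in QKO mES cells (53.3% against 17.2%). The falls were led by *Krt7* (1.89 to 0.0626 CPM, -4.82 ± 0.51) and *Krt19* (8.19 to 0.563 CPM, -3.88 ± 0.23), keratins of simple epithelium. In QKO EpiLCs 2 rose and 3 fell (33.3% against 21.2%). In TKO mES cells 3 fell (20% against 6.45%) and in LBRKO mES cells 2 rose and 2 fell (26.7% against 6.31%).

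Genes that hold back the trophectoderm fate, a list of 13, had medians of -0.08 in LBRKO, 0.02 in TKO and -0.01 in QKO mES cells, against 0.02, -0.01 and 0.01 over all genes. *Pou5f1*, which encodes OCT4, was at 386 ± 55.1 CPM in WT and 362 ± 20.1 CPM in QKO mES cells, where *Gata3* rose. On the WT passage 2 of the 13 rose and 2 fell, or 30.8% against 31.1% of all genes tested. In QKO EpiLCs *Nanog* fell from 77.4 to 29.2 CPM (-1.40 ± 0.17, adjusted p = 3.64e-09), *Sox2* rose from 57.7 to 125 CPM (1.12 ± 0.08, adjusted p = 9.25e-15), and *Pou5f1* was at 288 ± 20.8 against 490 ± 87.0 CPM, short of 2-fold (-0.77 ± 0.10).

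Several members are also used by other lineages, whose markers moved in part. Of 5 tested genes of a surface ectoderm and amnion list of 7, 1 fell in QKO mES cells (20% against 17.2% of all genes tested), where *Gata3* was highest. The summed level there was 25.1 to 27.9 CPM against 30.3 to 40.8 in WT, with *Krt5*, *Krt14* and *Tfap2b* without a read. In QKO EpiLCs 3 of the 5 rose (60% against 21.2%), among them *Grhl3* (2.33 to 8.68 CPM), an epidermal factor, and *Wnt6*. The sum was 11.9 to 15.4 against 3.38 to 4.83 CPM in WT. In LBRKO EpiLCs, where *Gata3* also rose, 1 of the 5 did (20% against 5.67%) and the sum was 8.44 to 11.1 CPM. Their part in the *Gata3* values was not tested.

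Of 11 tested genes of a mesoderm list of 12, 4 rose and 1 fell in LBRKO mES cells (45.5% against 6.31% of all genes tested). In TKO mES cells 4 fell (36.4% against 6.45%). The list holds *Cdx1* and *T*, which part the WT mES libraries as *Cdx2* does, and it was tested against all WT libraries together only. The summed list was at 86.4 to 95.1 CPM in LBRKO, 12.4 to 14.6 in TKO, 26.1 to 29.7 in QKO and 19.2 to 60.4 in WT mES cells, and no gene of it was without a read. In QKO EpiLCs, where *Hand1* fell, 2 of the 11 rose and 2 fell (36.4% against 21.2%), with a sum of 12.4 to 15.3 against 7.55 to 10.2 CPM in WT. Of 8 primitive endoderm genes, 3 rose in LBRKO mES cells (37.5% against 6.31%) and 1 fell in TKO mES cells (12.5% against 6.45%). In QKO mES cells 1 rose and 4 fell (62.5% against 17.2%, median log2 fold change -1.30), and 3 rose and 2 fell in QKO EpiLCs (62.5% against 21.2%). The part of these lineages in the *Cdx2* and *Hand1* values was not tested.

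Among the genes most like each member, by Pearson's r of log2 CPM over the 40 libraries, were *Alpk3* (0.992), *St8sia1* and *Sema4b* (0.989 each) for *Tead4*, and *Brpf3* (0.992) and *Lima1* (0.986) for *Tfap2c*. For *Gata3* they were *Sncg* (0.909), *Lipo3* (0.897) and *Lmo7* (0.892), for *Hand1* *Bcl11b* (0.95), *Pla2g12a* (0.948) and *Arhgdig* (0.947), and for *Cdx2* *Lonrf2* (0.824), *Klhl3* (0.815) and *Cdipt* (0.797). The libraries fall into 2 stages far apart, so these values describe the shared step between stages as well as any spread within them. *Elf5* did not reach 1 CPM in any group and was not matched.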

How the data were processed

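Raw gene counts deposited by the authors were used as they stand. Per the labels and the study's methods, reads of a stranded total RNA kit were trimmed with cutadapt 2.5, aligned to GRCm39 with STAR 2.7.10a and counted per gene of GENCODE with featureCounts 1.6.4, keeping reads with a single alignment. The submitters' processing notes also name SAMtools 1.10. The strand setting of the counting is not given in the sources used here. Library totals ran from 22.6 M to 48.9 M counts.

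Genes kept by filterByExpr (at least 10 reads in about as many libraries as the smallest group, and 15 in all) were fitted in edgeR 4.0.16 (R 4.3.3) with TMM scaling, 1 mean for each of the 8 groups and the quasi-likelihood test, as a single fit over all 40 libraries. Terms for the difference between passages, and for QKO against the sum of LBRKO and TKO, came from the same fit. Symbols were taken from a GENCODE annotation of GRCm39, in which 56017 of 56748 gene identifiers matched. Exon lengths and gene positions were those the authors deposited with the counts. Lists were summarised by counts and medians, naming at most 3 called genes per list and comparison, the largest folds at 1 CPM or more, beside fixed paralogs, partners and pluripotency genes. *T*, *Lbr*, the markers without reads and the library sets were singled out after their values were seen. The 3 genes most like each member were named by correlation, except where a gene is not reported here. The members and lists were chosen with earlier results of these data known.

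Alternatives were DESeq2 1.42.0, other scalings, no filter, only the groups compared, either set of WT libraries, each library left out, a replicate block, the authors' counts with multimapping reads, and, for *Tead4*, scaling to chromosome 6. The 92 pairs of libraries within groups were compared and 0 were identical. The fitting script was tested on simulated data.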

Additional observations from a re-analysis of the deposited data

Results flagged for a closer look

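A single library stood far from the rest of its group in 4 of the 48 combinations of gene and group, where chance gives about 1 in 20 for normally distributed values, a rate that was not checked for counts this low. *Tfap2c* was at 2.95 CPM in WT EpiLC replicate 7 against 1.09 to 1.82 in the other 7 libraries. *Elf5* was at 0.491 CPM in WT mES replicate 4 against 0.125 to 0.266, on 15 reads. *Hand1* was at 0.756 CPM in QKO EpiLC replicate 1 against 0.448 to 0.491, and at 0.0343 CPM in QKO mES replicate 4, a single read, against 0 in the other 3.

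Effects that differed between groups by the test of an edgeR interaction term were 7. On the passage to EpiLCs, compared with WT, *Gata3* (1.10) and *Tead4* (1.00) fell less in LBRKO, *Cdx2* differed in TKO (4.37) and *Tfap2c* fell less in QKO (1.12), all on the log2 scale. Against the sum of the LBRKO and TKO differences, QKO differed in mES cells for *Gata3* (1.79) and *Hand1* (-3.47), and in EpiLCs for *Tead4* (-1.47).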

How the results depend on the processing

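Of 2014 alternative values of the 84 differences of single genes, 1959 stayed on their side of the thresholds, 39 no longer passed, 13 newly passed and 3 turned direction, all of these last for *Cdx2* with WT replicates 1 to 4 as the only WT libraries: the WT passage (2.51), TKO mES cells (0.67) and the TKO passage term (-0.28). Of the 1959, 74 that did not pass turned sign, 72 of them for differences under 0.5 in size on the log2 scale as reported. The 84 include the stage differences of *Elf5* and *Hand1*, which had to differ to be tested at all. The falls of *Tfap2c*, *Tead4* and *Gata3* on the WT passage, and the rises of *Gata3* in QKO over WT and TKO at both stages, kept direction and call throughout.

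Counts of the 6 genes changed moved as follows, with the share of all genes changed under the same setting in brackets. With WT replicates 1 to 4 only, they were 1 in LBRKO EpiLCs (6.80%), 0 in TKO mES cells (5.68%), 3 in QKO mES cells (18.4%), and for the terms 1 in the LBRKO passage (7.32%), 2 in the QKO passage (12.6%) and 1 in the mES synergy (8.63%). With WT replicates 5 to 8 only, they were 0 in LBRKO mES cells (5.17%), 0 in the QKO passage (11.8%) and 3 in the mES synergy (8.32%). With only the groups compared in the fit, they were 0 in LBRKO mES cells (5.37%), 1 in the LBRKO passage (5.56%), 0 in the TKO passage (2.89%) and 1 in the mES synergy (7.95%). *Hand1* did not pass the filter in this mES synergy fit, so its term was not tested there. The WT passage is left out of these counts because *Elf5* and *Hand1* had to differ to be tested, and *Cdx2* was not tested when only the WT groups were fitted. DESeq2 gave 0 in LBRKO mES cells (6.60%). Without the filter on low counts the LBRKO passage (2.97%) and the mES synergy (3.85%) had 1 each, and with multimapping reads counted the LBRKO passage had 1 (6.05%). The cause of these moves was not tested.

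With 1 library left out at a time, the *Cdx2* rise in LBRKO mES cells and the *Gata3* rise in LBRKO EpiLCs were lost in some fits. So were the *Gata3* and *Tead4* terms of the LBRKO passage and the *Hand1* synergy term in mES cells. In other fits *Hand1* newly passed in QKO mES cells, against WT and against TKO, and *Tfap2c* in the TKO passage term. Counts of members are left out here, as the share of all genes was not kept for these fits. Leaving out LBRKO EpiLC replicate 4 lost the *Gata3* rise (0.91), leaving out QKO mES replicate 4 brought *Hand1* past the threshold (-3.67, adjusted p = 0.0478), and leaving out WT EpiLC replicate 7 did so for *Tfap2c* in the TKO passage (1.01).

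Over all groups replicate numbers did not generally pair the libraries, with 23 of 112 same-numbered pairs correlated over 0.1 (median 0.01, highest 0.29). Within LBRKO, though, *Lbr* RNA split as in EpiLCs, at 274 and 253 CPM in mES replicates 1 and 2 and 145 and 162 CPM in replicates 3 and 4. The fit behind the LBRKO passage terms took no account of such a pairing. Replicates 5 to 8 exist in WT alone, so a replicate block sets the mutants mostly against WT replicates 1 to 4 and is no separate check from that set. With the block the count was 2 in QKO mES cells (17.9% of all genes), 0 in TKO mES cells (5.64%) and 3 in the LBRKO passage (6.46%), and all genes changed in LBRKO mES cells went from 1477 to 2457. That last count was 2556 with WT replicates 1 to 4 only, and in TKO EpiLCs it went from 682 to 1196 with WT replicates 5 to 8 only. *Elf5*, and *Hand1* and *Cdx2* where they stand at a few reads, are limited by depth.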
